A study of Mus musculus with 23 samples.

Results

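The nuclear receptors and transcription factors that set the identity and metabolism of the hepatocyte were followed here across control liver, pre-metastatic liver and primary tumor. The set holds 41 named genes of the 48895 genes in the deposited table, and each was found by its symbol. It comprises 32 nuclear receptors, the aryl hydrocarbon receptor Ahr, which senses small molecules but belongs to another family, and 8 hepatocyte transcription factors. All 23 libraries came from male BALB/c mice that were 4 to 6 weeks old when they entered the study. In 9 mice, cells of the mouse colon carcinoma line CT26 were injected into the wall of the cecum, and 3 weeks later the liver (termed pre-metastatic) and the cecal tumor of each mouse were taken. The 5 control livers came from mice that had the sham operation with medium alone and had no tumors. One cell line, one strain and one time point were used, so the tumors are 9 tumors of the same line, and each tumor shares its mouse with a pre-metastatic liver. Mice are named as in the labels, C1 to C7 for controls and M1 to M12 for tumor-bearing mice.

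Nuclear receptors are transcription factors whose activity is set by small lipid-soluble ligands such as steroids, thyroid hormone, retinoids, oxysterols and xenobiotics. Many of them bind DNA together with a retinoid X receptor, while steroid receptors pair with themselves and several orphan receptors have no known ligand. In the liver they control the enzymes of drug, bile acid, cholesterol, glucose and fatty acid metabolism. The hepatocyte is defined by a network in which HNF4A, the FOXA pioneer factors, C/EBP alpha and the ONECUT factors bind one another's genes.

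Poly(A) RNA was sequenced, and total counts per library were 51064615 to 60393702 in control liver, 44587556 to 79773163 in pre-metastatic liver and 47005276 to 70884436 in primary tumor. Levels are given as the deposited RPKM, reads scaled to gene length and library size, and differences as the log2 fold change of edgeR's quasi-likelihood test, with p-values adjusted over all genes tested (Benjamini-Hochberg) and called under 0.05. All 8 hepatocyte markers, such as albumin (Alb), were present in every liver, and their summed level was 55008 to 65695 RPKM in control and 46649 to 93538 RPKM in pre-metastatic liver. In the tumors that sum was 23.6 to 420 RPKM. The tumors were high in Krt20, a keratin of colon epithelium, at 65.4 ± 30.8 RPKM (SD, n = 9), while the intestinal epithelial markers Cdx1 and Cdx2 had means of 0.0346 and 0.185 RPKM. Of 7 tested genes of the intestinal epithelial list, which includes these 3, 2 were higher and 5 lower in tumor than in pre-metastatic liver. The summed level of that list was 44.9 to 120 RPKM in tumor and 243 to 377 RPKM in pre-metastatic liver. The livers were not all at the same phase of the circadian clock. An index built from Dbp, Per3 and Ciart minus Arntl, Npas2 and Clock was below 0.5 in 4 control livers and 5 pre-metastatic livers, here the earlier phase, and above it in control C7 and in 4 pre-metastatic livers (M1, M2, M10 and M12), the later phase. Results of the members in the livers are therefore also given for the 9 earlier-phase livers alone and with the phase as a term of the fit. Those of the target, cofactor and cell marker lists are given over all livers only, without regard to phase. In the earlier phase the index was -1.66 to -1.01 in control and -2.35 to -0.102 in pre-metastatic liver. In the later phase it was 0.981 in C7 and 2.05 to 2.92 in pre-metastatic liver. Within a phase the groups were thus not matched in the index, and neither fit removes such differences.

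In control liver, levels of the members spanned more than 4 orders of magnitude, as the plot of all 23 libraries shows. Cebpa, which encodes the C/EBP alpha factor of energy metabolism, was highest at 311 ± 72.8 RPKM (SD, n = 5), followed by Hnf4a at 237 ± 68.8 and Creb3l3 at 158 ± 12.6, and the values of these neighbors in the order overlapped. Rxra, the main retinoid X receptor of liver, came next at 88.6 ± 6.71 RPKM, below every Creb3l3 value. Foxa3, Nr1i3 and Nr1h3 followed at 65.2, 62.8 and 57.3 RPKM, with overlapping values. At the low end, Nr4a3, Nr4a2, Hnf4g and Vdr had means of 0.0414, 0.0368, 0.0301 and 0.0132 RPKM. Of the 41 members, 3 had a mean of 100 RPKM or more, 13 lay between 10 and 100, 16 between 1 and 10, and 9 were under 1 RPKM. In 35 of the 40 neighboring pairs in this order the control values overlapped, so the order within each level is loose.

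**Figure D1:**
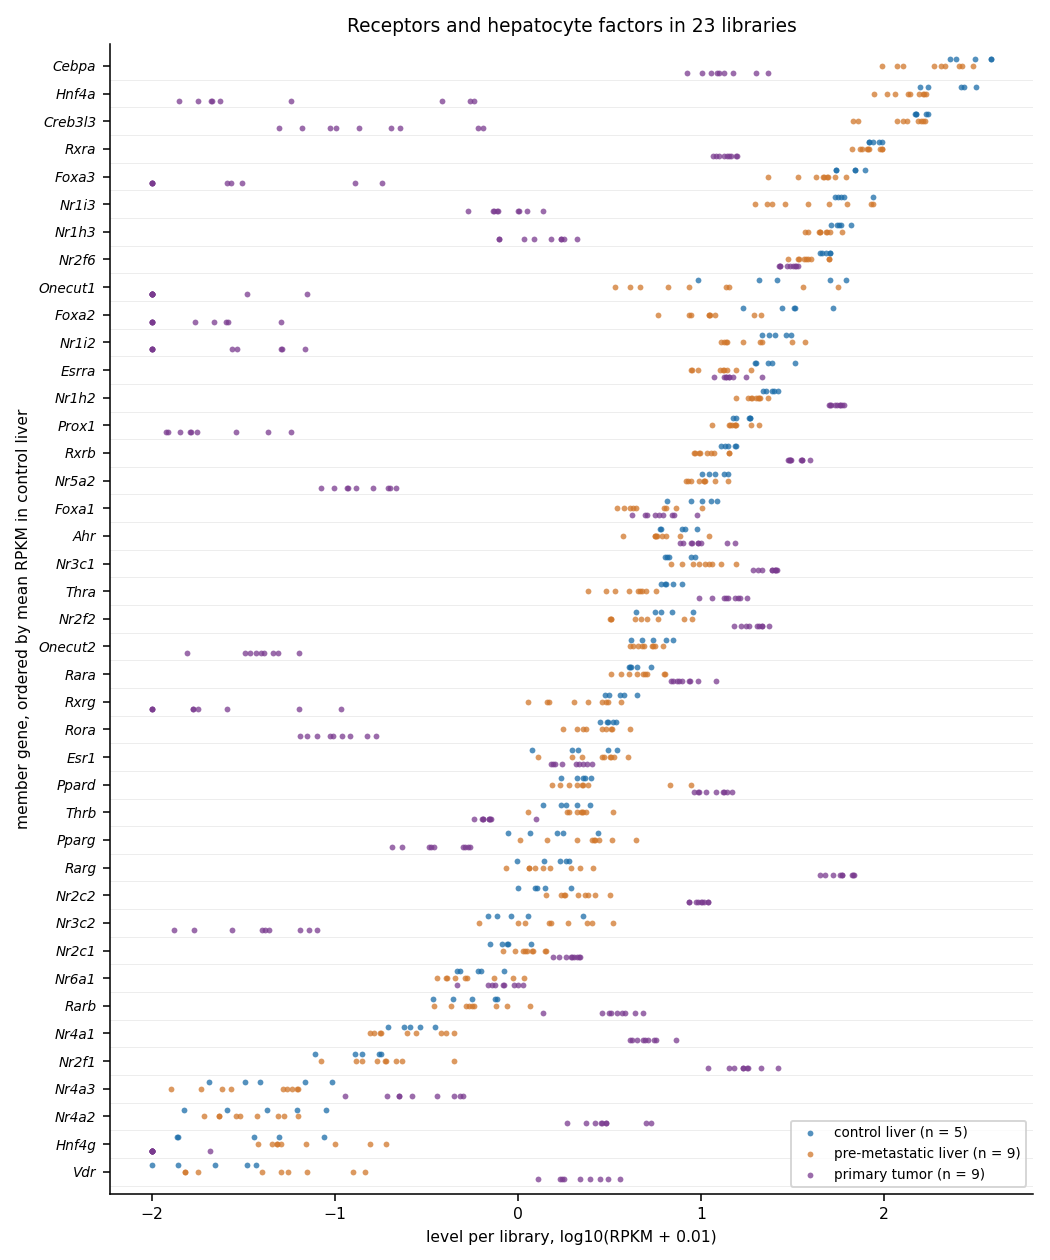
Level of each of the 41 members in every library, as log10(RPKM + 0.01) on the horizontal axis, with genes ordered by their mean in control liver and one point per library (blue, 5 control livers; orange, 9 pre-metastatic livers; purple, 9 primary tumors). Control and pre-metastatic livers lie close together for most genes, whereas the tumor points of Hnf4a, the Foxa2 and Foxa3 genes, Onecut1 and Prox1 lie far to the left and those of Rarg, Nr2f1, Nr4a2 and Vdr to the right.

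The first comparison asked how these regulators differed between the liver of a tumor-bearing mouse and that of a sham-operated mouse. Of the 41 members, 8 were lower in pre-metastatic liver, Foxa2, Esrra, Foxa1, Hnf4a, Thra, Rxrb, Nr1h3 and Nr1h2. The 3 members that were higher were Nr2c2, Nr3c1 and Nr2c1. The share called lower was 19.5% of the members, beside 13.3% of all 16987 genes tested, and the share called higher was 7.32%, beside 17.6% of all genes. The median log2 fold change of the members was -0.15 and that of all genes 0.01. Values of the 2 groups did not overlap for 2 members, Esrra and Thra, both lower in pre-metastatic liver. Among all genes, 6.09% were lower and 4.85% higher without overlap. In the 9 earlier-phase livers, 10 members were lower and 2 higher, beside 10.8% and 14.3% of the 16675 genes tested there. With phase as a term 9 were lower and 3 higher, beside 13.5% and 17.3% of all genes. Values of the earlier-phase livers did not overlap for 8 members that were lower and 1 that was higher, beside 11.3% and 9.45% of all genes. In a whole tissue, fewer cells of a type and less RNA per cell cannot be told apart.

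Markers of other cells moved between these livers. The macrophage and Kupffer list had 8 of 10 tested genes higher, and its summed level was 113 to 214 RPKM in control and 206 to 592 RPKM in pre-metastatic liver. The neutrophil and monocyte list had 8 of 9 tested genes higher, with sums of 7.15 to 18.7 and 9.38 to 127 RPKM. Red cell precursor markers were higher for 6 of 7 tested genes (216 to 485 and 557 to 1198 RPKM), proliferation markers for 7 of 8 (17.7 to 24 and 22.6 to 32.2 RPKM), and acute-phase genes for 13 of 14 (8072 to 18740 and 24751 to 74973 RPKM). Cholangiocyte markers were higher for 4 of 7 tested genes, with sums of 16.8 to 24.3 RPKM in control and 40.8 to 142 RPKM in pre-metastatic liver, without overlap. The stellate cell and fibroblast list had 3 of 12 genes higher and 1 lower (144 to 201 and 73.1 to 240 RPKM), the lymphocyte list 3 of 9 higher (1.86 to 4.55 and 2.74 to 11.9 RPKM), and the endothelial list 1 of 10 higher (42.6 to 81.4 and 27.0 to 104 RPKM). None of these markers was at 0 in every library of either group. Of the 8 hepatocyte markers, 3 were higher and 1 was lower. The part of these cells in the members' differences was not tested.

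The hepatocyte factors outside the receptor family had 2 of 8 members lower, both FOXA genes, and none higher. Foxa2, a pioneer factor that opens chromatin at liver enhancers, had control values of 16.9, 32.7, 52.2, 27.5 and 32.1 RPKM. In pre-metastatic liver its lowest, median and highest values were 5.77, 11 and 21.1 RPKM, and 7 of 9 libraries lay below the lowest control. It fell by 1.32 on the log2 scale (95% interval -1.93 to -0.70, edgeR adjusted p = 0.00353), the largest fall among the called members. Its earlier-phase fold change was -1.75 (edgeR adjusted p = 0.00253), and no single library removed the call.

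Foxa1, its close relative, had control values of 6.46, 10.1, 12.2, 11.3 and 8.84 RPKM, and pre-metastatic values of 3.45, 4.42 and 10.1 RPKM at the lowest, median and highest. The groups overlapped, with 7 of 9 pre-metastatic livers below the lowest control. It fell by 0.73 on the log2 scale (95% interval -1.22 to -0.24, edgeR adjusted p = 0.0251), and -1.07 in the earlier phase (edgeR adjusted p = 0.00112). Without control C4, C5 or C6 the edgeR adjusted p was 0.0540, 0.0787 and 0.0689, and without a filter on low counts 0.0564. Foxa3, the most abundant of the 3 FOXA genes, had means of 65.2 ± 10.3 RPKM (SD, n = 5) in control and 45.0 ± 11.2 RPKM (n = 9) in pre-metastatic liver, and 8 of 9 pre-metastatic livers lay below the lowest control. Its log2 fold change of -0.43 was not called (95% interval -0.86 to 0.00, edgeR adjusted p = 0.121), though it was without M6 (edgeR adjusted p = 0.0456), with total-count scaling (edgeR adjusted p = 0.0294) and by the exact Wilcoxon test (adjusted p = 0.0211).

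Cebpa had means of 311 ± 72.8 RPKM (SD, n = 5) and 197 ± 71.6 RPKM (n = 9). Its pre-metastatic values ran from 97.3 to 304 RPKM and overlapped the control range of 230 to 384 RPKM. Its log2 fold change of -0.58 was not called over all livers (95% interval -1.08 to -0.08, edgeR adjusted p = 0.0753), and without M10 it was (edgeR adjusted p = 0.0351). In the earlier phase the 5 pre-metastatic livers had 97.3 to 214 RPKM and the 4 controls 230 to 383 RPKM, and Cebpa was lower by a log2 fold change of -0.92 (edgeR adjusted p = 0.0138). With phase as a term the log2 fold change was -0.80 (edgeR adjusted p = 0.00418).

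Onecut1, also called HNF6, was the most variable of these factors. Its control values were 9.60, 20.6, 50.3, 61.7 and 25.9 RPKM, and its pre-metastatic values ran from 3.36 through a median of 8.61 to 55.8 RPKM. The 2 highest pre-metastatic livers, M10 and M12 with 55.8 and 35.8 RPKM, were of the later phase, and so were M1 and M2 with 8.61 and 3.36 RPKM. The log2 fold change was -0.93 over all livers (95% interval -2.35 to 0.49, edgeR adjusted p = 0.312), and -2.0 in the earlier phase (edgeR adjusted p = 0.0306). The other 3 factors were not called. Onecut2, Prox1, a homeobox factor of hepatocytes, and Creb3l3, a membrane-bound factor of fasting and lipid handling, had log2 fold changes of -0.06 (95% interval -0.34 to 0.23), -0.05 (-0.33 to 0.23) and -0.22 (-0.61 to 0.17).

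HNF4A is the orphan receptor at the center of the hepatocyte network, and its gene moved in the same direction as the FOXA genes. Hnf4a had control values of 173, 264, 316, 274 and 157 RPKM. The lowest, median and highest pre-metastatic values were 88.2, 139 and 168 RPKM, so that 6 of 9 lay below the lowest control, and every one lay below 4 of the 5 controls. It fell by 0.70 on the log2 scale (95% interval -1.12 to -0.28, edgeR adjusted p = 0.0148), and by nearly the same amount in the earlier phase, with a log2 fold change of -0.72 (edgeR adjusted p = 0.0140). Without control C5 the edgeR adjusted p was 0.0545. Hnf4g, its relative of gut and kidney, was barely detected, with at most 36 counts in a pre-metastatic liver, and was not called (log2 fold change 1.39, edgeR adjusted p = 0.128; without C7 2.08, edgeR adjusted p = 0.0465).

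HNF4A targets, a list of 22 genes from general knowledge, did not move one way. Of them 5 were lower and 2 higher, and their median log2 fold change was -0.02. Cyp8b1, the sterol 12-hydroxylase of bile acid synthesis, fell by 1.68 on the log2 scale (edgeR adjusted p = 4.33e-05), and Apoc3, an apolipoprotein, by 0.64 (edgeR adjusted p = 0.00164). Pklr, the pyruvate kinase of liver, and G6pc, the glucose-6-phosphatase, rose by 2.86 (edgeR adjusted p = 1.08e-04) and 1.78 (edgeR adjusted p = 0.0368).

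The promoters of the members that turned on these comparisons are shown to place the binding letters of the factors described above. RefSeq start sites of GRCm38.p6 were available for 36 of the 41 members, and the 250 bases before each start were searched on both strands. Of the motifs searched, 3 are followed here, chosen after their counts were seen. ONECUT letters were ATCAATA. FOXA letters were TGTTTAC, with TGTTTGC counted as the same motif. CACGTG was taken as the E-box bound by the clock factors. It is a palindrome, and none of the 3 contains another. Several members have more than 1 start, so shares are given over windows, 56 for the members and 32817 for all genes. ONECUT letters occurred in Foxa2 and Hnf4a, in 3.57% of the members' windows and 1.86% of all windows. FOXA letters occurred in 8 members, in 14.3% of their windows and 7.29% of all windows. CACGTG occurred in 4 members, Nr1i3, Onecut1, Rara and Thrb, in 7.14% of the members' windows and 6.02% of all windows. Among the other motifs, the receptor half-site AGGTCA occurred in 16.1% of the members' windows and 14% of all windows, and its ERR and LRH-1 extension CAAGGTCA, which contains it, in 0 of the 56 and 1.33% of all windows. The C/EBP letters TTGCNNAA occurred in 14.3% and 9.57%, CCAAT in 33.9% and 33.8%, and the GC box GGGCGG in 28 of the 56 and in 32.7% of all windows. The windows printed are those of members whose log2 fold change was called and at least 0.7 in size, over all livers or in the earlier phase, with the RefSeq start within 50 bases of the deposited gene edge and at least 1 of the 3 motifs. Esrra, Nr2c2 and Foxa1 were left out by the distance rule, and Cebpa because its window held none of the 3 motifs. A motif in every printed window is thus set by the rule. Each is given 5′ to 3′ on the strand of the gene and ends before the first annotated exon, with the motif letters in capitals.
Foxa2, chr2:148046971-148047219, minus strand, ONECUT letters starting 214 bases before the start: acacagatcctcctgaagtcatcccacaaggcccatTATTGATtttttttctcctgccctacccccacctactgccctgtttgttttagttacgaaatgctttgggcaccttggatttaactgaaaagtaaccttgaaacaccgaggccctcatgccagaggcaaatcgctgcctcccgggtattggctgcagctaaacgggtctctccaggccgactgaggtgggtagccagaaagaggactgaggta
Hnf4a, chr2:163506607-163506807, plus strand, ONECUT letters starting 59 bases before the start: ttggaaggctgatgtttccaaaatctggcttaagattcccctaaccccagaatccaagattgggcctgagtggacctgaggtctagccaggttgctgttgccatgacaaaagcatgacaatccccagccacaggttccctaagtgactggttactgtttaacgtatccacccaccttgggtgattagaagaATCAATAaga
Onecut1, chr9:74861671-74861919, plus strand, CACGTG starting 232 bases before the start: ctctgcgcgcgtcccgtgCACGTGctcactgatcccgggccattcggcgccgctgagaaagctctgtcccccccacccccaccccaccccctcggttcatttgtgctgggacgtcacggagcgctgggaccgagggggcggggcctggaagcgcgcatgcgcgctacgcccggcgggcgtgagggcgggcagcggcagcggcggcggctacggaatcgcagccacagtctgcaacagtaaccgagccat
Nr1i3, chr1:171213720-171213930, plus strand, CACGTG starting 244 bases before the start: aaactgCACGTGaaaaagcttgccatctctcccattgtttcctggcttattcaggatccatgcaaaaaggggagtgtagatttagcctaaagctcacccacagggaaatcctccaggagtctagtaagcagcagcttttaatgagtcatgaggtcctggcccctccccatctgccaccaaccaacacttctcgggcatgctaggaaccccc
Nr1i2, chr16:38294851-38295074, minus strand, FOXA letters starting 191 and 164 bases before the start: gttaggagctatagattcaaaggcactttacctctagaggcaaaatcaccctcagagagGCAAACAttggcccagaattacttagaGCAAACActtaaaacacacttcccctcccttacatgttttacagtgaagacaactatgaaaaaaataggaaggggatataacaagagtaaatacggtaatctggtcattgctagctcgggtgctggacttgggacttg
These matches describe the letters in the windows and are not measured binding.

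**Figure D2:**
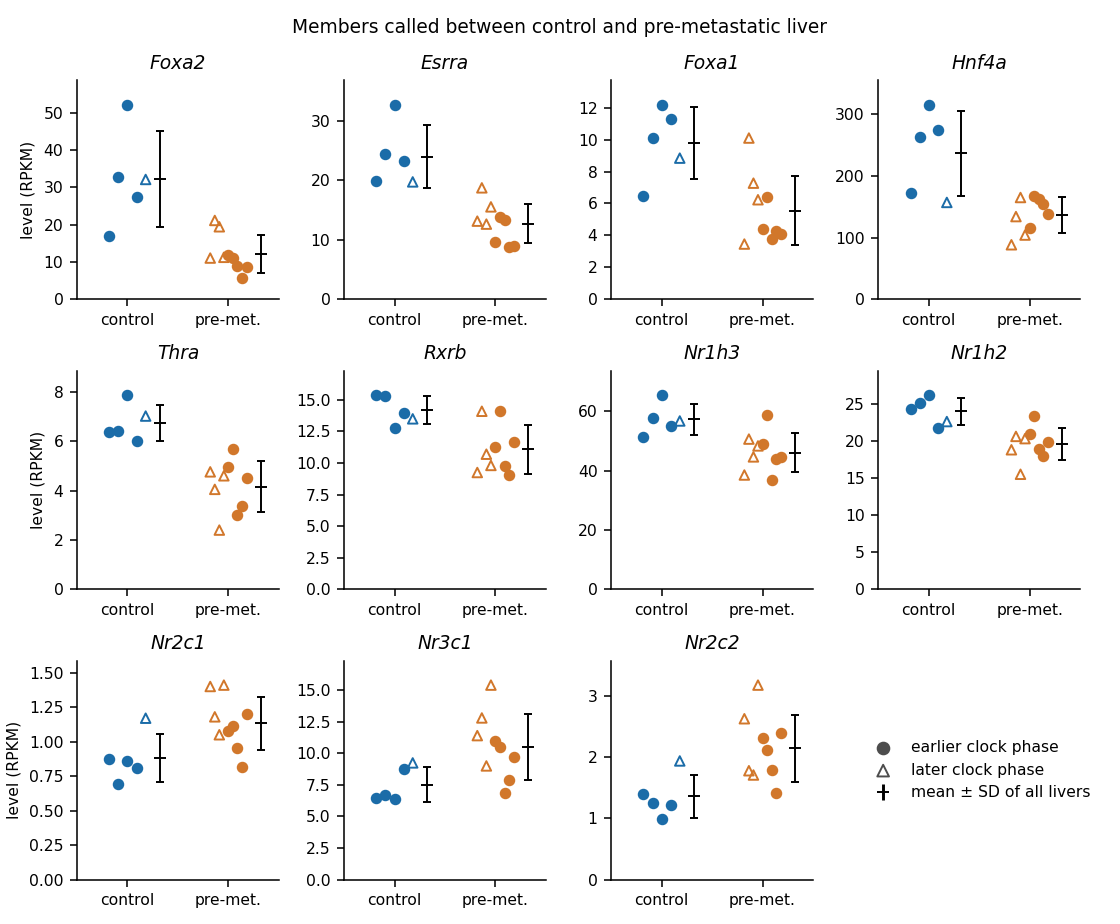
Level in RPKM of the 11 members called between control liver (blue, n = 5) and pre-metastatic liver (orange, n = 9), one point per liver, with filled circles for the earlier clock phase, open triangles for the later phase, and a black bar for the mean ± SD of all livers of the group. Esrra and Thra have no overlap between the groups, and the Foxa2 values of pre-metastatic liver reach 21.1 RPKM where the control values reach 52.2 RPKM.

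The xenobiotic receptors Nr1i2 (PXR) and Nr1i3 (CAR), which induce drug-metabolizing enzymes, and Ahr were not called over all livers. Nr1i3 differed between the phases. Its control values were 59.9, 57.9, 55.7 and 54.0 RPKM in the earlier phase and 86.6 RPKM in C7, the one control of the later phase. In pre-metastatic liver the 5 earlier-phase livers had 19.7 to 38.4 RPKM and the 4 later-phase livers 49.9 to 86.6 RPKM, and it was the only member of 41 for which these 2 sets of pre-metastatic livers did not overlap. Among all 16987 genes, 2.50% were higher and 2.72% lower in the later phase without overlap, so 1 of 41 members is close to the background. Over all livers the log2 fold change was -0.36 (95% interval -1.08 to 0.37, edgeR adjusted p = 0.458). In the earlier phase it was -1.04 (edgeR adjusted p = 0.00107), with every pre-metastatic liver below every control, and with phase as a term -0.83 (edgeR adjusted p = 0.00269). Only 1 control was of the later phase, so no test could be made there. Nr1i3 overlaps Tomm40l on the opposite strand by 1044 bases, at 26.9 and 25.3 RPKM in control and pre-metastatic liver, and whether counting used the strand is not given in the sources used here.

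Nr1i2 was also lower in the earlier-phase pre-metastatic livers, but it did not follow the phase as Nr1i3 did. Its value in C7, 21.4 RPKM, was the lowest of the controls, and its earlier-phase and later-phase pre-metastatic livers overlapped, with means of 15.6 and 25.9 RPKM. The overlap was at M1, with 13.4 RPKM. M2, M10 and M12, with 21.6, 31.3 and 37.1 RPKM, lay above every earlier-phase pre-metastatic liver. It had 23.5 to 31.0 RPKM in the 4 earlier-phase controls and 12.8 to 20.9 RPKM in the 5 earlier-phase pre-metastatic livers, without overlap, and 13.4 to 37.1 RPKM in the later-phase pre-metastatic livers. The log2 fold change was -0.75 in the earlier phase (edgeR adjusted p = 0.00126), but -0.28 over all livers (95% interval -0.83 to 0.28, edgeR adjusted p = 0.449) and -0.48 with phase as a term (edgeR adjusted p = 0.171), neither of which was called. Ahr had means of 7.52 ± 1.52 RPKM (SD, n = 5) and 6.39 ± 2.02 RPKM (n = 9) and was not called (log2 fold change -0.15, 95% interval -0.55 to 0.26).

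Of 24 tested CAR and PXR targets, 7 were lower and 1 was higher, with a median log2 fold change of -0.30. Cyp2b10, the cytochrome P450 used as the readout of CAR, fell by 5.47 on the log2 scale (edgeR adjusted p = 1.08e-04), with means of 18.9 ± 16.7 RPKM (SD, n = 5) in control and 0.435 ± 0.435 RPKM (n = 9) in pre-metastatic liver. Slco1a4, an uptake transporter, fell by 3.11 (edgeR adjusted p = 2.41e-04), Cyp3a11, the readout of PXR, by 3.0 (edgeR adjusted p = 0.00221) and Cyp3a25 by 1.69 (edgeR adjusted p = 0.00133). Of the 7 tested AHR targets, 2 were higher and 1 lower. The lower one was Nqo1, a quinone reductase, which fell by 1.15 (edgeR adjusted p = 3.84e-04).

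**Figure D3:**
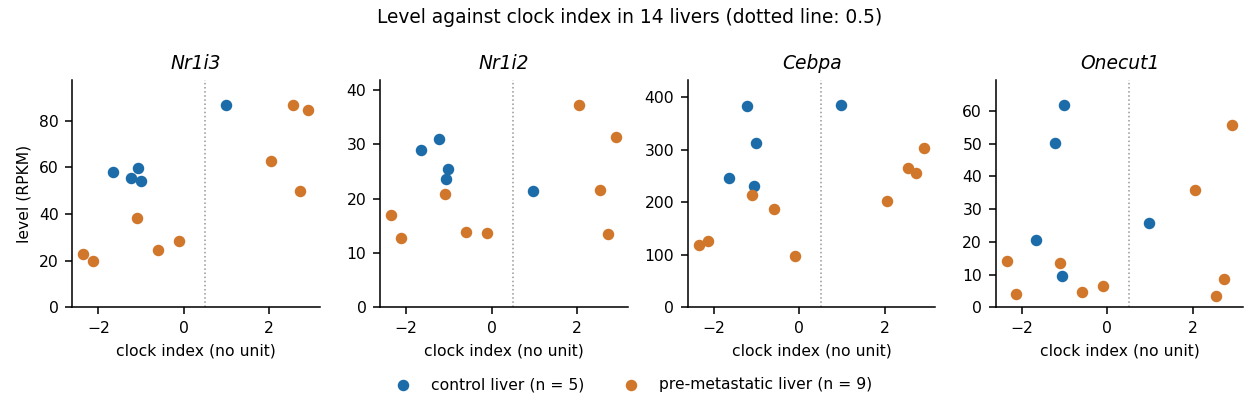
Level in RPKM of Nr1i3, Nr1i2, Cebpa and Onecut1 against the clock index, which has no unit, in 5 control livers (blue) and 9 pre-metastatic livers (orange), one point per liver, with a dotted line at 0.5. To the left of the line the pre-metastatic values of Nr1i3, Nr1i2 and Cebpa all lie below the control values, and to the right stand 1 control and 4 pre-metastatic livers.

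The oxysterol receptors Nr1h3 (LXR alpha) and Nr1h2 (LXR beta), which answer to cholesterol derivatives, were both slightly lower. Nr1h3 had control values of 51.4, 57.8, 65.5, 54.9 and 56.7 RPKM and pre-metastatic values of 36.8, 44.6 and 58.7 RPKM at the lowest, median and highest, with 8 of 9 below the lowest control. Its log2 fold change was -0.24 (95% interval -0.41 to -0.07, edgeR adjusted p = 0.0331). Nr1h2 had control values of 24.3, 25.1, 26.2, 21.8 and 22.6 RPKM and pre-metastatic values of 15.5, 19.9 and 23.3 RPKM, again with 8 of 9 below the lowest control. Its log2 fold change was -0.22 (95% interval -0.37 to -0.07, edgeR adjusted p = 0.0261). Both calls were thin. In the earlier phase the adjusted p was 0.0683 for Nr1h3 and 0.0775 for Nr1h2, and without a filter on low counts 0.0768 and 0.0745. Without C1, C4 or C5 it was 0.0839, 0.0682 and 0.0786 for Nr1h2, and without C1, C4, C5, C6, M1 or M8 it was 0.0511 to 0.124 for Nr1h3.

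Most LXR targets that were called moved the other way, with 7 of 15 higher and 1 lower and a median log2 fold change of 0.27. Scd1, the stearoyl-CoA desaturase, rose by 5.32 on the log2 scale (edgeR adjusted p = 2.41e-04), from 4.83 ± 3.37 RPKM (SD, n = 5) to 182 ± 160 RPKM (n = 9). Fasn, the fatty acid synthase, rose by 2.41 (edgeR adjusted p = 0.00365), Srebf1, the factor that drives lipogenesis, by 2.07 (edgeR adjusted p = 1.30e-04) and Pnpla3 by 1.94 (edgeR adjusted p = 0.0227). These genes have other regulators too, and the list is not a measure of LXR activity.

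The lipid-sensing receptors Pparg and Ppard were not called. Pparg, the adipocyte regulator that is low in liver, had means of 1.62 ± 0.706 RPKM (SD, n = 5) and 2.52 ± 0.988 RPKM (n = 9), a log2 fold change of 0.73 (95% interval 0.09 to 1.37, edgeR adjusted p = 0.0797). DESeq2 called it (adjusted p = 0.0435), and so did edgeR without C7 (adjusted p = 0.0317) or M6 (adjusted p = 0.0318). Ppard had 1.70 to 2.50 RPKM in control and 1.52 to 2.40 RPKM in 7 pre-metastatic livers, while M4 and M8 had 6.72 and 8.84 RPKM. Of 12 tested PPARG and PPARD targets, 5 were lower and 1 higher. The lipid droplet genes Cidec, Plin4 and Plin5 fell by 3.48 (edgeR adjusted p = 9.62e-05), 2.53 (edgeR adjusted p = 7.40e-04) and 2.32 (edgeR adjusted p = 1.86e-05) on the log2 scale, and Vldlr, a lipoprotein receptor, by 2.08 (edgeR adjusted p = 0.00145).

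Among the 6 retinoid receptors, only Rxrb was called. It had control values of 15.4, 15.3, 12.8, 14 and 13.5 RPKM and pre-metastatic values of 9.09, 10.7 and 14.1 RPKM at the lowest, median and highest, and the groups overlapped. The log2 fold change was -0.29 (95% interval -0.50 to -0.07, edgeR adjusted p = 0.0466), and leaving out any 1 of 10 livers (C1, C4, C6, M1, M2, M4, M5, M6, M7 or M8) gave an adjusted p of 0.0539 to 0.145. It was also not called with upper-quartile scaling (edgeR adjusted p = 0.0590), without a filter (0.0786), with phase as a term (0.0698) or by the exact Wilcoxon test (0.0810). Rxra, the partner of most receptors described here, had 88.6 ± 6.71 RPKM (SD, n = 5) and 83.3 ± 10.9 RPKM (n = 9), and its interval was narrow (log2 fold change -0.01, 95% interval -0.20 to 0.17). Rxrg fell short of the threshold (log2 fold change -0.55, 95% interval -1.01 to -0.10, edgeR adjusted p = 0.0597), although it was called by DESeq2 (adjusted p = 0.0409) and by edgeR without M4 (adjusted p = 0.0222). The retinoic acid receptors Rara, Rarb and Rarg had log2 fold changes of 0.18 (95% interval -0.09 to 0.45), 0.24 (-0.32 to 0.80) and 0.08 (-0.43 to 0.59). In the list of retinoic acid genes, 3 of 13 tested genes were higher and 2 lower. Aldh1a2, a retinoic acid synthase, rose by 1.70 on the log2 scale (edgeR adjusted p = 0.00331). Rbp4, the retinol carrier that hepatocytes secrete, and Rdh16, a retinol dehydrogenase, fell by 1.21 (edgeR adjusted p = 4.86e-05) and 0.97 (edgeR adjusted p = 0.00259).

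Thyroid hormone acts through Thra and Thrb, of which Thrb is the main receptor of hepatocytes. Thra had control values of 6.37, 6.42, 7.88, 5.99 and 7.02 RPKM, and its lowest, median and highest pre-metastatic values were 2.40, 4.50 and 5.69 RPKM, without overlap. It fell by 0.64 on the log2 scale (95% interval -0.91 to -0.37, edgeR adjusted p = 0.00173). The call held without each single library (adjusted p up to 0.00810) and in the earlier phase (log2 fold change -0.59, adjusted p = 0.0105). Thra overlaps the clock gene Nr1d1 on the opposite strand by 1075 bases, so reads there may not be told apart. Nr1d1 itself ranged from 4.70 to 44.6 RPKM in control and 4.21 to 27.5 RPKM in pre-metastatic liver (log2 fold change -0.36, edgeR adjusted p = 0.595). Its part in the Thra values was not tested. Thrb was not called, with 1.89 ± 0.412 RPKM (SD, n = 5) and 2.14 ± 0.562 RPKM (n = 9).

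Of 12 tested thyroid hormone targets, 3 were higher and 1 was lower. Dio1, the deiodinase that is a sensitive readout of the hormone, had 0.0395 to 0.269 RPKM in control and 0.126 to 16.8 RPKM in pre-metastatic liver, and rose by 5.60 on the log2 scale (edgeR adjusted p = 0.00103). Thrsp, a lipogenic target, rose by 4.56 (edgeR adjusted p = 0.00153) and Gpd2 by 0.70 (edgeR adjusted p = 0.0215), while Slc16a10, a transporter of the hormone, fell by 0.93 (edgeR adjusted p = 0.00129). Rora, a clock-linked receptor, was not called (log2 fold change -0.10, 95% interval -0.41 to 0.20). Vdr, the vitamin D receptor, was close to undetected, with at most 38 counts in a pre-metastatic liver and 0 to 0.0270 RPKM in control (log2 fold change 2.01, edgeR adjusted p = 0.0848).

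Nr3c1, the glucocorticoid receptor, was the steroid receptor that rose. It had control values of 6.49, 6.66, 6.35, 8.75 and 9.24 RPKM and pre-metastatic values of 6.86, 10.5 and 15.4 RPKM at the lowest, median and highest, with 6 of 9 above the highest control. It rose by 0.56 on the log2 scale (95% interval 0.26 to 0.86, edgeR adjusted p = 0.00826), and 0.43 in the earlier phase (edgeR adjusted p = 0.0290). The exact Wilcoxon test on RPKM did not call it (adjusted p = 0.0604). Of 18 glucocorticoid receptor targets, 4 were lower and 2 higher. Igfbp1 and Lcn2, genes of fasting and of inflammation, rose by 2.37 (edgeR adjusted p = 0.0275) and 2.32 (edgeR adjusted p = 0.0115) on the log2 scale, whereas Cdkn1a, a cell cycle inhibitor, and Sds, a serine-degrading enzyme, fell by 2.38 (edgeR adjusted p = 0.0145) and 1.75 (edgeR adjusted p = 0.00296). Nr3c2, the mineralocorticoid receptor, rested on C7. That control had 2.26 RPKM and the other 4 had 0.675 to 1.12 RPKM, and the log2 fold change was 0.68 with it (edgeR adjusted p = 0.170) and 1.05 without it (edgeR adjusted p = 0.0401). Esr1, the estrogen receptor alpha, was not called (log2 fold change 0.31, 95% interval -0.26 to 0.89).

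The other orphan receptors split. Esrra, the estrogen-related receptor that drives mitochondrial genes, had control values of 19.8, 24.4, 32.7, 23.2 and 19.7 RPKM, and its lowest, median and highest pre-metastatic values were 8.76, 13.1 and 18.7 RPKM, without overlap. It fell by 0.84 on the log2 scale (95% interval -1.20 to -0.47, edgeR adjusted p = 0.00199), and the fall was also called in the earlier phase (log2 fold change -1.14, edgeR adjusted p = 0.00153) and without each single library. In the list of targets of ERR, the estrogen receptor and the vitamin D receptor, 5 of 8 tested genes were lower and 1 was higher. The mitochondrial genes Cycs and Sdhb fell by 0.75 (edgeR adjusted p = 6.44e-05) and 0.57 (edgeR adjusted p = 0.00139), and Lifr, a cytokine receptor, rose by 1.11 (edgeR adjusted p = 0.00393).

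Nr2c1 and Nr2c2, the testicular receptors 2 and 4, rose. Nr2c2 had control values of 1.40, 1.26, 0.988, 1.22 and 1.94 RPKM and pre-metastatic values of 1.41, 2.12 and 3.18 RPKM at the lowest, median and highest, and 5 of 9 lay above the highest control, C7. Its log2 fold change was 0.73 (95% interval 0.37 to 1.10, edgeR adjusted p = 0.00503), and in the earlier phase, where the 2 groups did not overlap, it was 0.77 (edgeR adjusted p = 0.00734). Nr2c2 overlaps Mrps25 on the opposite strand by 3547 bases, which had 2.38 and 2.96 RPKM in the 2 groups. Nr2c1 had control values of 0.873, 0.696, 0.860, 0.809 and 1.17 RPKM and pre-metastatic values of 0.814, 1.11 and 1.41 RPKM, and rose by 0.44 on the log2 scale (95% interval 0.15 to 0.73, edgeR adjusted p = 0.0229). Without C4 or C6 its adjusted p was 0.0668 and 0.0563, in the earlier phase 0.0676, with total-count scaling 0.0815 and by the exact Wilcoxon test 0.106. Nr5a2 (LRH-1), a regulator of bile acid and cholesterol genes, was not called (log2 fold change -0.16, 95% interval -0.38 to 0.06), and neither were Nr2f1, Nr2f2, Nr2f6 and Nr6a1. Nr2f6 had means of 47.8 ± 2.63 RPKM (SD, n = 5) and 38.9 ± 6.95 RPKM (n = 9) and was called only without M8 (edgeR adjusted p = 0.0225, against 0.0901 over all livers). Of 8 tested targets of SHP and LRH-1, 3 were lower, Cyp8b1 and Scarb1 among them, and none was higher. The NR4A receptors, which are quickly induced by stimuli, were low in both livers, with means of 0.256 and 0.260 RPKM for Nr4a1, and none of the 3 was called.

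**Figure D4:**
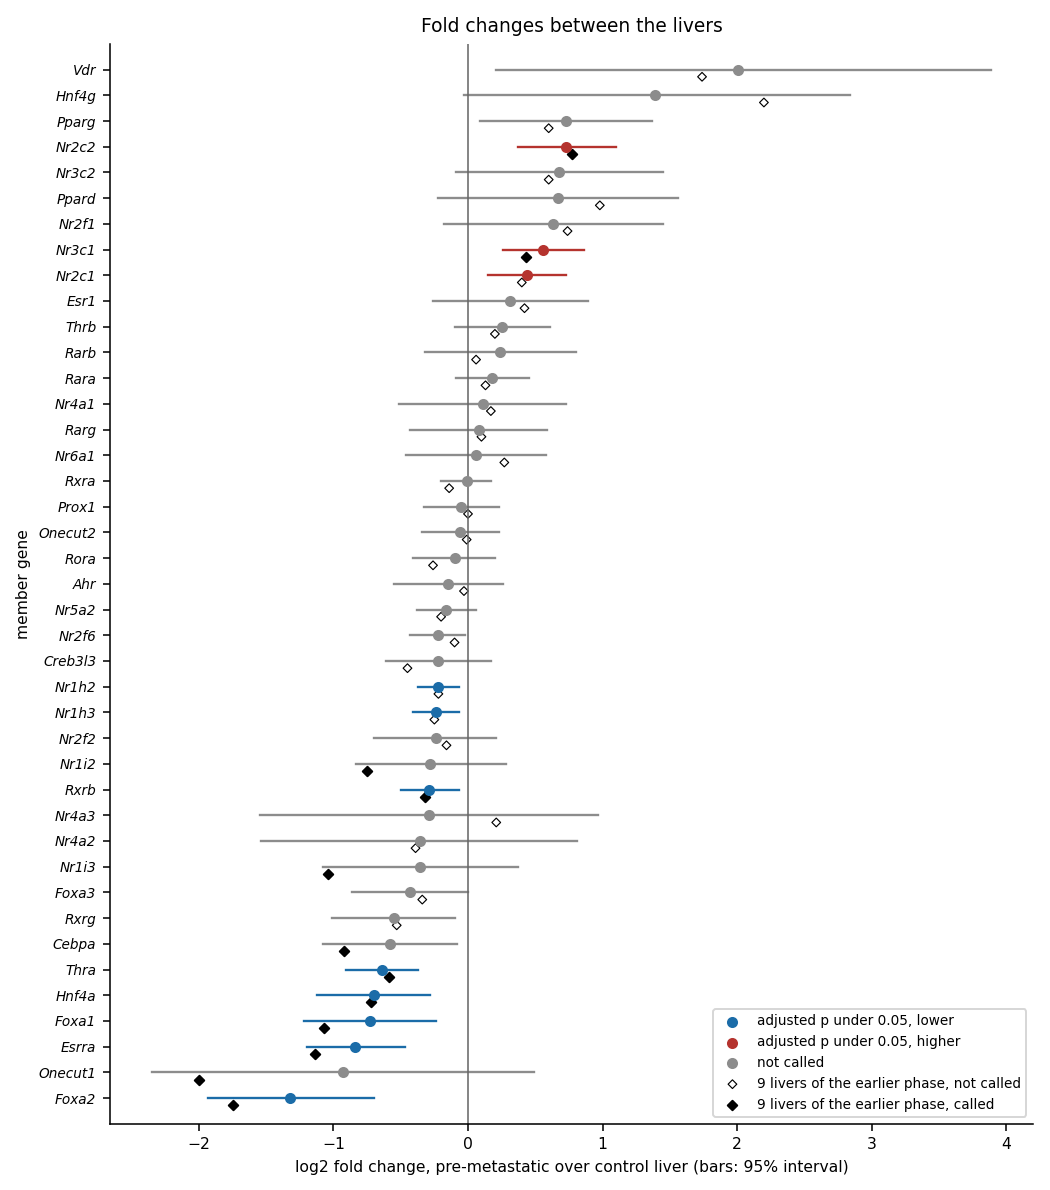
Log2 fold change of pre-metastatic over control liver for the 41 members on the horizontal axis, with the 95% interval as a bar, coloured blue for members called lower, red for members called higher and grey for those not called. Black diamonds give the value in the 9 earlier-phase livers (filled where called), and those of Nr1i3, Nr1i2, Cebpa and Onecut1 are filled and lie left of their grey points.

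Cofactors and other regulators were examined as lists. Of 22 coregulators, 2 were higher and 1 was lower, with a median log2 fold change of 0.04. Ncoa7 and Ncoa2 rose by 1.13 (edgeR adjusted p = 0.0113) and 0.35 (edgeR adjusted p = 0.00511) on the log2 scale and Ncoa4, which also delivers ferritin for breakdown, fell by 0.55 (edgeR adjusted p = 0.00229). Of 31 tested other liver transcription factors, 9 were higher and 5 lower, among them Srebf1, Foxq1 and Bhlhe40, which were higher, and Tbx3, a factor of pericentral hepatocytes, which fell by 1.28 (edgeR adjusted p = 0.00242). Of 9 tested nuclear receptors outside the 41, 1 was higher and 2 were lower, Esrrb among them (log2 fold change -1.41, edgeR adjusted p = 0.0378). CREB3L3 targets had 5 of 11 lower and 3 higher. Apoa4 fell by 4.65 (edgeR adjusted p = 3.58e-05), Cidec, also on the PPAR list, by 3.48, and Hamp, the iron hormone hepcidin, by 2.74 (edgeR adjusted p = 0.00956), while Apcs, an acute-phase protein, rose by 2.80 (edgeR adjusted p = 1.25e-04).

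The second comparison set the primary tumor against the pre-metastatic liver of the same 9 mice, 2 tissues of different origin. Of the 40 members tested, 26 were lower and 12 higher in the tumor, beside 40.5% of all 17827 genes tested that were lower and 43.7% that were higher, and the median log2 fold change was -1.30, beside 0.09 for all genes. Hnf4g, with at most 3 counts in a tumor library, was not tested. Against control liver, 24 of 40 were lower and 11 higher, beside 38.0% and 44.1% of 19320 genes. Both comparisons use the same tumors, and the pre-metastatic livers are also those of the first comparison, so none is independent of the others. Scaling matters between these tissues. TMM factors were 0.592 to 0.779 in pre-metastatic liver and 1.44 to 1.56 in tumor, and with scaling by total counts alone, as in RPKM, the median log2 fold change of all genes was 1.27 in place of 0.09. For 7 members, Ahr, Rara, Nr3c1, Esrra, Nr2c1, Nr6a1 and Foxa1, that scaling turned the sign from negative to positive. With TMM all of these but Nr3c1 were called lower, and DESeq2 called the same 6 lower, while upper-quartile scaling called Esrra, Foxa1 and Nr6a1 lower and not Ahr, Rara or Nr2c1 (edgeR adjusted p = 0.0903, 0.268 and 0.0553). Among fold changes beyond about 10 on the log2 scale, those of Foxa2, Onecut1 and Nr1i2 rest on at most 10 counts in a tumor library. Such values depend on the prior count of the fit. Hnf4a had 1 to 165 counts in a tumor library. The levels are therefore given first.

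**Figure D5:**
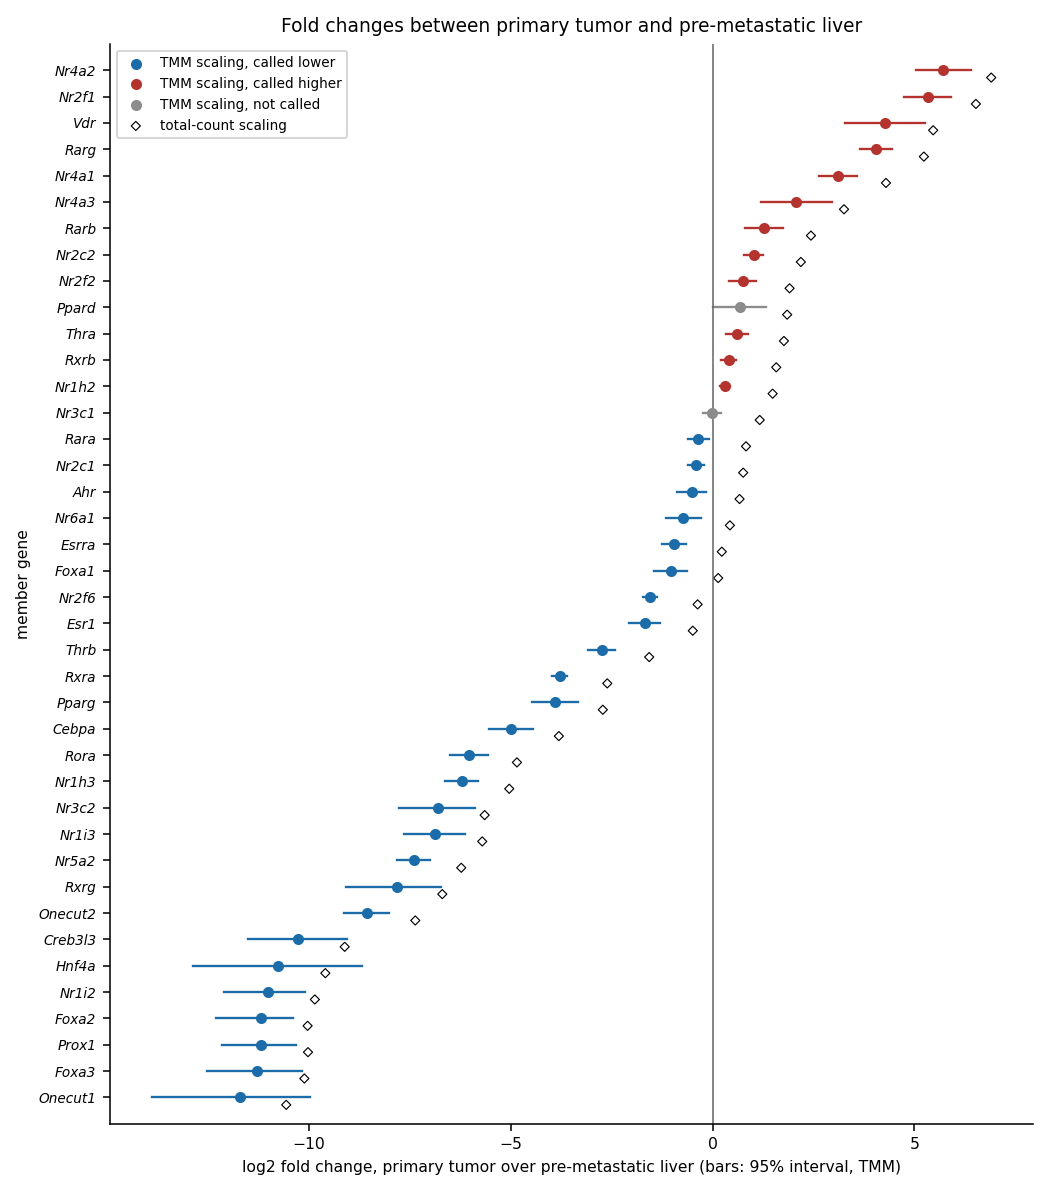
Log2 fold change of primary tumor over pre-metastatic liver for 40 members on the horizontal axis, with the 95% interval as a bar under TMM scaling (blue, called lower; red, called higher; grey, not called) and an open diamond under total-count scaling. Diamonds lie to the right of the points throughout, and for 7 members between Nr3c1 and Foxa1 they cross zero.

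All 8 hepatocyte factors were called lower in the tumor, with a direction that turned for Foxa1 alone under total-count scaling. Foxa2 had 0 to 0.0405 RPKM in the 9 tumors, at most 6 counts, against 5.77 to 21.1 RPKM in the pre-metastatic livers. Foxa3 had 0 to 0.171 RPKM against 23.3 to 61.8 RPKM, Prox1 0.00188 to 0.0477 RPKM against 11.4 to 20.7 RPKM, and Onecut1, at most 6 counts, 0 to 0.0604 RPKM against 3.36 to 55.8 RPKM. Their log2 fold changes lay between -11.72 and -11.19. Creb3l3 and Onecut2 had tumor means of 0.226 ± 0.229 and 0.0297 ± 0.0131 RPKM (SD, n = 9). Cebpa was reduced but present, at 14 ± 4.71 RPKM against 197 ± 71.6 RPKM (log2 fold change -4.99, 95% interval -5.54 to -4.45, edgeR adjusted p = 6.50e-13). Foxa1 was the exception among the FOXA genes, with 6.13 ± 1.56 RPKM in tumor and 5.55 ± 2.17 RPKM in pre-metastatic liver. Its log2 fold change was -1.04 with TMM (edgeR adjusted p = 6.80e-05) and 0.14 with total counts (edgeR adjusted p = 0.495).

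Hnf4a had 0.00406 to 0.561 RPKM in the tumors against 88.2 to 168 RPKM in the pre-metastatic livers (log2 fold change -10.78, 95% interval -12.89 to -8.68). The 4 highest tumors, M2, M12, M10 and M1, had 0.561, 0.535, 0.372 and 0.0473 RPKM, and the other 5 had 0.00406 to 0.0136 RPKM. The same 4 mice had the later-phase livers. Albumin RNA in those 4 tumors was 15.0, 173, 86.4 and 6.25 RPKM, and 2.97 to 4.55 RPKM in the other 5. Whether liver RNA accounts for the Hnf4a counts of these tumors was not tested. All 22 HNF4A targets tested were lower in the tumor.

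The xenobiotic receptors Nr1i2 and Nr1i3 were lower in tumor. Nr1i2 had 0 to 0.0587 RPKM, at most 10 counts, against 12.8 to 37.1 RPKM, and Nr1i3, with 77 to 200 counts in every tumor, had 0.885 ± 0.253 RPKM (SD, n = 9) against 46.5 ± 26.2 RPKM (log2 fold change -6.89, edgeR adjusted p = 1.05e-12). Its opposite-strand neighbor Tomm40l had 11.9 RPKM in tumor. Of 23 tested CAR and PXR targets, 22 were lower and 1 was higher. Ahr had 10.2 ± 2.59 RPKM in tumor and 6.39 ± 2.02 RPKM in pre-metastatic liver, with a log2 fold change of -0.52 under TMM (edgeR adjusted p = 0.00902) and 0.67 under total counts (edgeR adjusted p = 0.00120).

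Within several receptor families, one paralog was lower in tumor and another higher. Of the LXR pair, Nr1h3 had 1.40 ± 0.464 RPKM (SD, n = 9) in tumor against 46.1 ± 6.56 RPKM in pre-metastatic liver (log2 fold change -6.21, edgeR adjusted p = 4.80e-16). Nr1h2 had 55.0 ± 3.79 RPKM against 19.6 ± 2.16 RPKM (log2 fold change 0.31, edgeR adjusted p = 3.77e-05). Of the retinoid X receptors, Rxra had 13.7 ± 1.47 RPKM against 83.3 ± 10.9 RPKM (log2 fold change -3.79, edgeR adjusted p = 7.75e-18), and Rxrb had 33.1 ± 3.45 RPKM against 11.1 ± 1.92 RPKM (log2 fold change 0.40, edgeR adjusted p = 3.45e-04). Rxrg was at most 0.0984 RPKM in tumor. Against control liver, Nr1h2 and Rxrb were not called (log2 fold change 0.11 and 0.13, edgeR adjusted p = 0.175 and 0.184), and both were with upper-quartile scaling (edgeR adjusted p = 0.00165 and 0.00391), total-count scaling and no filter.

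Rarg, the retinoic acid receptor of epithelia, had the highest mean of the members in tumor, with 44.6, 58.5 and 68.1 RPKM at the lowest, median and highest against 0.844, 1.35 and 2.54 RPKM in pre-metastatic liver. Its tumor values overlapped those of Nr1h2 (49.8 to 60.3 RPKM), which was above Rarg in M1, M2 and M6. Against pre-metastatic liver Rarg was higher by a log2 fold change of 4.06 (95% interval 3.65 to 4.46, edgeR adjusted p = 1.70e-13). Rara had 8.39 ± 1.63 RPKM against 4.73 ± 1.06 RPKM, and its TMM log2 fold change of -0.35 became 0.83 with total counts. Rarb was higher too, with 3.41 ± 0.983 RPKM (SD, n = 9) against 0.630 ± 0.251 RPKM (log2 fold change 1.27, edgeR adjusted p = 3.40e-05). Of the thyroid hormone receptors, Thra had 14.1 ± 2.50 RPKM against 4.15 ± 1.04 RPKM (log2 fold change 0.61, edgeR adjusted p = 2.21e-04) and Thrb 0.718 ± 0.204 RPKM against 2.14 ± 0.562 RPKM (log2 fold change -2.75, edgeR adjusted p = 3.50e-12). Against control liver, Thra had a log2 fold change of -0.01 (edgeR adjusted p = 0.929), and 1.07 with total counts (edgeR adjusted p = 8.51e-07). Vdr rose from at most 0.136 RPKM in pre-metastatic liver to 2.28 ± 0.755 RPKM in tumor (log2 fold change 4.28, edgeR adjusted p = 6.59e-08), and Rora was lower, at 0.0959 ± 0.0348 RPKM (log2 fold change -6.03, edgeR adjusted p = 4.74e-15).

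Among steroid receptors, Nr3c1 had 23.5 ± 2.52 RPKM (SD, n = 9) in tumor against 10.5 ± 2.59 RPKM in pre-metastatic liver. The log2 fold change was -0.01 under TMM (edgeR adjusted p = 0.927) and 1.17 under total counts (edgeR adjusted p = 2.90e-08). Nr3c2 was lower, at 0.0344 ± 0.0237 RPKM (log2 fold change -6.81, edgeR adjusted p = 2.40e-11). Esr1 was called lower too (log2 fold change -1.68, edgeR adjusted p = 3.25e-08), at 1.97 ± 0.388 RPKM against 2.77 ± 0.811 RPKM, with overlapping values. Under total counts its log2 fold change was -0.49 (edgeR adjusted p = 0.0125). Of the lipid-sensing receptors, Pparg was lower, with 0.383 ± 0.132 RPKM against 2.52 ± 0.988 RPKM (log2 fold change -3.90, edgeR adjusted p = 5.05e-11). Ppard had 11.8 ± 2.09 RPKM against 3.29 ± 2.62 RPKM and was not called (log2 fold change 0.67, edgeR adjusted p = 0.0512). With the mouse as replicate block it was called (log2 fold change 0.96, edgeR adjusted p = 0.00610), and also without M4 or M8 (edgeR adjusted p = 0.0116 and 0.00187) and with upper-quartile scaling (edgeR adjusted p = 0.0139).

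The orphan receptors Nr2f1, Nr2f2 and all 3 NR4A genes were higher in tumor. Nr2f1 (COUP-TFI) had 10.9, 17.0 and 26.2 RPKM at the lowest, median and highest in tumor against 0.0740, 0.178 and 0.437 RPKM in pre-metastatic liver (log2 fold change 5.33, 95% interval 4.75 to 5.92, edgeR adjusted p = 8.17e-13). Nr2f2 (COUP-TFII) had 19.4 ± 2.72 RPKM (SD, n = 9) against 5.16 ± 2.10 RPKM (log2 fold change 0.75, edgeR adjusted p = 2.32e-04). Among the NR4A genes, Nr4a2 had 3.21 ± 1.17 RPKM against 0.0263 ± 0.0152 RPKM (log2 fold change 5.71, edgeR adjusted p = 2.09e-12), Nr4a1 had 5.12 ± 0.981 RPKM against 0.260 ± 0.114 RPKM (log2 fold change 3.12, edgeR adjusted p = 7.69e-11), and Nr4a3 had 0.303 ± 0.140 RPKM (log2 fold change 2.07, edgeR adjusted p = 1.55e-04). Nr2c2 was higher as well, at 9.82 ± 0.897 RPKM against 2.15 ± 0.547 RPKM (log2 fold change 1.02, edgeR adjusted p = 3.26e-08). The opposite-strand gene Mrps25, which overlaps it, went from 2.96 to 10.8 RPKM, and its part in the Nr2c2 counts was not tested. Nr4a2 overlaps LOC105244150 on the same strand by 670 bases, at 0.104 RPKM in pre-metastatic liver and 3.46 RPKM in tumor. Nr2f1 overlaps A830082K12Rik on the opposite strand by 966 bases, at 0.0533 and 6.99 RPKM. The part of these 2 genes in the counts was not tested either. Nr5a2 and Nr2f6, a further relative of Nr2f1, were lower, with tumor means of 0.136 ± 0.0477 and 30.1 ± 2.81 RPKM (log2 fold change -7.41 and -1.55). Esrra, Nr2c1 and Nr6a1 had tumor means of 14.9 ± 2.88, 1.92 ± 0.211 and 0.799 ± 0.183 RPKM, and their TMM log2 fold changes of -0.95, -0.42 and -0.73 became 0.23, 0.76 and 0.43 with total counts. The summed level of stellate cell and fibroblast markers was 684 to 1100 RPKM in tumor against 73.1 to 240 RPKM, with 6 of 12 genes called higher and 5 lower, and that of macrophage markers 1115 to 3431 RPKM against 206 to 592 RPKM, with 4 of 10 higher and 5 lower. From which cells of the tumor the receptor RNA came was not tested.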

How the data were processed

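Poly(A) RNA-seq of 23 libraries was analysed: 5 control livers, 9 pre-metastatic livers and 9 primary tumors. The authors deposited, for 48897 rows, the raw count of each gene and library, with no normalization, and the RPKM, the count scaled by gene length and library total. RPKM recomputed here from the counts differed from the deposited values by a relative 1.75e-06 at most. The submitters' processing notes name HISAT2, HTSeq 0.6.0 and mm10, while the annotation and the strand setting are not given in the sources used here. All 46 columns were matched to samples, and 2 repeated symbols were summed.

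Counts were compared with edgeR 4.0.16 in R 4.3.3 (TMM, robust quasi-likelihood test, two-sided, Benjamini-Hochberg over all genes tested) on the 2 groups of each comparison. Genes needed at least 10 counts in 5 libraries, or in 9 for tumor against pre-metastatic liver. Intervals are 95% and come from the unshrunken coefficient. Alternatives were DESeq2 1.42.0, upper-quartile scaling, no filter, an exact Wilcoxon test on RPKM, each replicate left out, the earlier clock phase alone, phase as a term, the mouse as replicate block and, chosen after seeing the data, scaling by total counts. The clock index is the mean standardized log2(RPKM + 1) of 3 genes minus that of 3 others over the 14 livers. The steps were run on simulated counts with 200 genes changed. Between the livers, 53 of 100 genes changed by 1 on the log2 scale and 89 of 100 changed by 2 were recovered, with 9 false calls. These numbers were 66, 94 and 6 for tumor against pre-metastatic liver and 54, 76 and 9 against control liver. A member that was not called may therefore still differ.

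Tumor and liver with the same number come from the same mouse by the labels. Across genes, the mean correlation of such paired deviations was 0.0727 in 9 pairs (-0.0315 to 0.189), and -0.00935 in 72 pairs of different mice. No library was a copy of another (at least 44.5 chi-square per degree of freedom). P-values measure the spread between these mice. The main fit of tumor against pre-metastatic liver has no mouse term and treats the libraries as unpaired. The fit with the mouse as replicate block uses the pairing. All 41 members are named. Members called between the livers are given in full, and of each other list at most 4 genes, those with the largest fold change among the called. Of the genes overlapping a member, Tomm40l, Nr1d1, Mrps25, LOC105244150 and A830082K12Rik were added. Other members, Esrra and Hnf4a among them, also overlap genes of the deposited table, which are not named. The members and lists were chosen with earlier results of these data known, and the target lists come from general knowledge. A count of 3 or fewer in every library was taken as the floor. Counting error does not cover the variation between mice. Promoter sequences are those of RefSeq on GRCm38.p6. Some genes and a motif that these rules would name are not reported here.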

Additional observations from a re-analysis of the deposited data

Results flagged for a closer look

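In 123 groups of values, 41 members in 3 groups, 8 had a library apart from the rest by Dixon's test, where chance flags about 1 in 20. In control liver both cases were C7, the one control of the later clock phase, with 86.6 RPKM of Nr1i3 (next 59.9) and 2.26 RPKM of Nr3c2 (next 1.12). In pre-metastatic liver M6 had 0.437 RPKM of Nr2f1 (next 0.221). In tumor, M2 stood apart for Thrb, with 1.25 RPKM (next 0.702), for Foxa2, with 0.0405 RPKM or 6 counts (next 0.0161), and for Hnf4g, with 0.0107 RPKM or 3 counts, where the other 8 tumors were at 0. M12 stood apart for Onecut1 in tumor, with 0.0604 RPKM or 6 counts (next 0.0232), and M8 for Nr4a1, with 7.28 RPKM (next 5.66). M2 and M12 were among the 3 tumors with the highest albumin RNA, at 15.0 and 173 RPKM. The causes were not tested.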

How the results depend on the processing

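Between the livers, no member changed sign with a call under any alternative. Without a filter on low counts, 4 members were lower in place of 8. That fit adjusts p-values over a larger set of genes, and its calls over all genes are not given here. The exact Wilcoxon test called 1 member and 1954 genes higher, in place of 3 and 2996. With 1 replicate left out, 2 to 6 members were higher and 4 to 9 lower, and 2519 to 2951 genes were higher and 1714 to 2309 lower. Esrra, Foxa2, Thra, Nr2c2 and Nr3c1 were called without each library in turn. Against the tumor, scaling by total counts called 12218 genes higher and 3731 lower than in pre-metastatic liver, in place of 7796 and 7215, and 12846 higher and 4124 lower than in control liver, in place of 8525 and 7337. The Wilcoxon test, which also rests on total counts, gave 12171 and 3664, and 4127 lower than in control. Either called 17 members higher than in control liver in place of 11. Log2 fold changes of tumor over pre-metastatic liver that turned positive under both were 0.67 for Ahr, 0.83 for Rara, 1.17 and 1.16 for Nr3c1, 0.23 for Esrra, 0.76 for Nr2c1, 0.43 for Nr6a1 and 0.14 for Foxa1. Over control liver they were 0.43 for Ahr, 0.93 for Rara, 1.07 for Thra and 0.43 for Nr6a1. Esr1 was no longer called against control liver under total counts (log2 fold change -0.26, edgeR adjusted p = 0.253) or by the Wilcoxon test (adjusted p = 0.623). With the mouse as replicate block, 13 members were higher and 26 lower and 7819 and 7099 genes, and no member call changed other than that of Ppard. With the earlier-phase mice alone, Ahr, Rara and Nr2c1 were no longer called against pre-metastatic liver (edgeR adjusted p = 0.125, 0.203 and 0.104), nor Nr6a1 against control liver (edgeR adjusted p = 0.0823). Upper-quartile scaling ended the calls of Ahr, Rara and Nr2c1 too (edgeR adjusted p = 0.0903, 0.268 and 0.0553), and added Ppard against pre-metastatic liver and Nr1h2 and Rxrb against control liver. Depth limits Hnf4g, Vdr, Nr4a2 and Nr4a3 in liver, and Foxa2, Onecut1 and Nr1i2 in tumor, among others. In tumor libraries Rxrg had at most 13 counts and Nr3c2 at most 19, and Foxa3 was at 0 RPKM in M2, M4, M7 and M8.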
